A study of Mus musculus with 4 samples.

Results

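The genes described here carry LIF-STAT3 and FGF-ERK signalling, the pair of pathways that pull mouse embryonic stem cells towards self-renewal or differentiation. The 10 members were given by name: the LIF-STAT3 genes Lifr, Il6st, Stat3 and Socs3 and the FGF-ERK genes Fgf4, Fgfr1, Fgfr2, Spry2, Spry4 and Dusp6. Each was read from probe sets annotated to its symbol alone, taking the probe set with the highest mean, and all 10 were found among the 18820 genes compared. Total RNA of mouse embryonic stem cells was hybridised to Affymetrix Mouse Gene ST arrays, with 2 samples labelled KAP_WT (genotype wild type) and 2 labelled KAP_KO (genotype KAP1 fl/fl, source labelled as the knockout). KAP1 is the protein of Trim28, which silences genes where KRAB zinc finger proteins recruit it. All 4 samples carry the treatment label 4-OH-tamoxifen, the inducer of conditional deletion, and grew on irradiated mouse embryonic fibroblasts. The treatment text gives 24 hours with the inducer or vehicle and 48 hours of culture after it. The design text speaks of cells before and after the conditional knockout, whereas the labels give all samples the inducer and the controls a wild-type genotype. Whether the groups are 1 line, sister clones or separate lines is therefore not settled, and the sources used here do not give the Cre driver. Loss of Trim28 and a difference between lines therefore cannot be told apart. Samples are labelled as biological replicates, and nothing says whether they were separate cultures, so the p-values measure only the spread between these samples.

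Leukaemia inhibitory factor (LIF) binds a receptor made of Lifr and the shared subunit gp130, encoded by Il6st. Receptor-bound JAK kinases then phosphorylate the transcription factor Stat3, which keeps naive transcription factors on and also turns on Socs3, its own inhibitor. Fgf4 is the FGF that stem cells make themselves. Through FGF receptors it drives the RAS-ERK cascade, which prepares the cells to leave the naive state, and ERK activity in turn induces the Sprouty proteins and the ERK phosphatase Dusp6, which damp it.

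Trim28 itself fell by 2.38 on the log2 scale in the samples labelled knockout (SE 0.091, limma adjusted p = 3.39e-05), as a check of the labels. Pearson's r over all probe sets was 0.994 between the wild-type arrays, 0.995 between the knockout arrays and at most 0.976 across the groups. Values are the deposited log2 expression, so 1 unit is 2-fold, and 2 arrays per group limit the precision. Across all genes 26.9% passed an adjusted p of 0.05, 14.2% higher and 12.7% lower in the knockout, and the median change was -0.053.

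Of the 10 members 6 passed that threshold, against 26.9% of all genes. All 10 were brighter than the median gene, and 41.8% of the genes above that median passed when fitted alone. With array medians subtracted 6 members passed too, against 44.9% of all genes. The 6 were the FGF-ERK genes: Fgfr1, Fgfr2 and Dusp6 rose, while Fgf4, Spry2 and Spry4 fell. None of the 4 LIF-STAT3 genes passed in limma, and 0 of them had an unadjusted p under 0.05. Whether the changes of the 2 arms differ was not tested as such. The groups did not overlap for 9 of 10 members, against 65.2% of all genes. Fgf4 and Spry4 passed with a change of at least 2-fold, which 5.89% of all genes did.

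**Figure D1:**
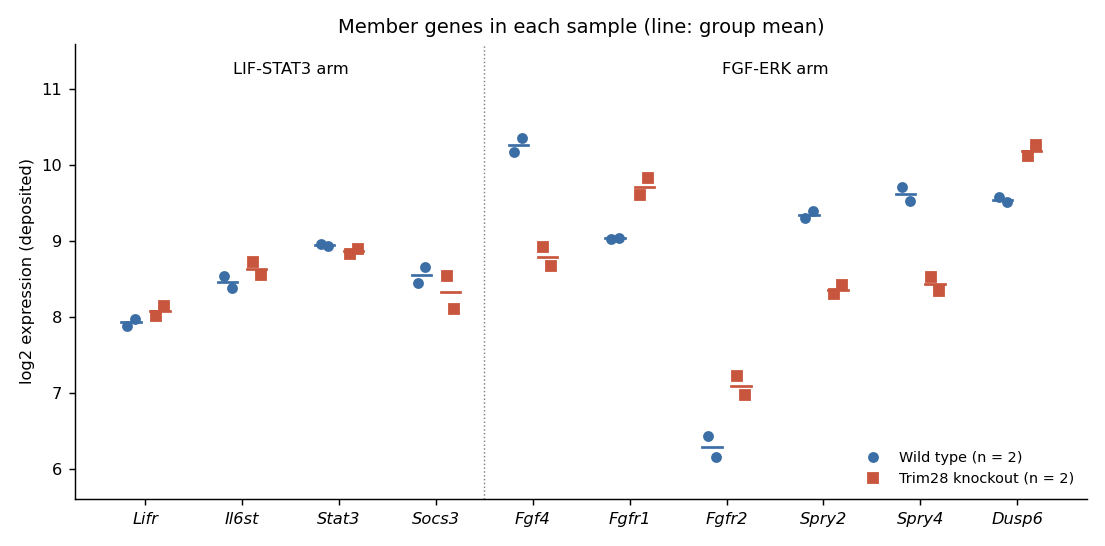
Deposited log2 expression (vertical axis) of the 10 member genes in the 2 wild-type samples (circles) and the 2 Trim28 knockout samples (squares), with a line at each group mean. The groups stand apart by at least 0.54 for each of the 6 FGF-ERK genes and lie within 0.04 of each other or overlap for the 4 LIF-STAT3 genes.

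In the LIF-STAT3 arm the receptor subunits were close in both groups. Lifr, the LIF-binding subunit, read 7.88 and 7.98 in wild-type samples, against 8.01 and 8.14 in knockout samples. The knockout values lay just above the wild-type values, by 0.034 at the nearest. The difference was 0.15 (SE 0.098, 95% confidence interval -0.086 to 0.38, limma adjusted p = 0.326), and its sign turned to -0.021 when each array's median over the tested genes was subtracted. Il6st, the gp130 subunit that LIF shares with other cytokines of the interleukin-6 family, stood at 8.53 and 8.38 in the KAP_WT samples and at 8.72 and 8.55 in the KAP_KO samples. Again the groups were separated by a gap of 0.020, with a difference of 0.18 (interval -0.076 to 0.44, limma adjusted p = 0.275).

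Stat3, the transcription factor of the pathway, gave 8.96 and 8.94 with Trim28 intact, against 8.83 and 8.90 in the knockout. The difference was -0.082, and its interval ran from -0.30 to 0.13 (limma adjusted p = 0.560), so that the fitted knockout level was 94.5% of wild type. These values are of the transcript alone, and phosphorylation of the protein was not measured.

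Socs3, the feedback inhibitor that Stat3 induces, is shown with its promoter because it is the member with a STAT motif there. The 250 bases before its annotated start, chr11:117969367-117969616 on the minus strand of GRCm38.p6 from RefSeq, hold the STAT motif TTCNNNGAA once, in capitals, starting 154 bases before the start site.
Socs3: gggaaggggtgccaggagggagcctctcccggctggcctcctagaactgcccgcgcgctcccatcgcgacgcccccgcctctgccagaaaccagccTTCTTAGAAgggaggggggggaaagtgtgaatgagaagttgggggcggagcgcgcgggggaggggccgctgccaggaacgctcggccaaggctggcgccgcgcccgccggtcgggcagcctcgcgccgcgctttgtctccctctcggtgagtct
The motif was sought on both strands, reads the same on each, and overlaps no other motif sought here. It is found in 7.02% of all 32851 RefSeq windows of that length. In the wider 300-base windows, which run 50 bases past the start and were at hand for 8 of the 10 members, 8.30% of all windows hold it, 8.86% hold the ETS motif CCGGAAG and 1.63% hold a CArG box. Socs3 was the sole member with a match to any of these 3 in those windows.

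Socs3 read 8.44 and 8.66 in wild-type samples, against 8.55 and 8.10 in knockout samples. The groups overlapped, since knockout replicate 1 lay between the wild-type samples and knockout replicate 2 below both. The difference of -0.22 had an interval of -0.61 to 0.16 (limma adjusted p = 0.362). It was -0.0042 without knockout replicate 2 and -0.44 without knockout replicate 1, so its size rests on single samples. A second Socs3 probe set, annotated to another transcript record, gave a difference of -0.23 (SE 0.25).

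In the FGF-ERK arm the ligand fell deepest. Fgf4, the FGF that stem cells secrete, is shown with its promoter as the member with the largest change. The 250 bases before its start, chr7:144861136-144861385 on the plus strand of GRCm38.p6 from RefSeq, hold the GC box GGGCGG 2 times and the motif CCAAT 1 time, on the reverse strand and so printed as ATTGG. All 3 are in capitals.
Fgf4: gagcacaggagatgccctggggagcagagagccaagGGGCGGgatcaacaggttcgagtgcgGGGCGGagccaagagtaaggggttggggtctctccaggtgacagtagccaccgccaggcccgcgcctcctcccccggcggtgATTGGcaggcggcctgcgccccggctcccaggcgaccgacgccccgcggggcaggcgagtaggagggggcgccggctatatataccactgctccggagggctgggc
These motifs, sought on both strands after the values were seen, do not overlap each other. At least 1 GC box is in 32.7% and at least 1 CCAAT in 33.8% of all RefSeq windows of this length.

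Fgf4 stood at 10.17 and 10.36 in the KAP_WT samples and at 8.92 and 8.67 in the KAP_KO samples. Both knockout samples lay far below both wild-type samples, with a gap of 1.25 between the nearest. The mean fell by 1.47 on the log2 scale, from 10.27 ± 0.13 to 8.80 ± 0.18 (SD, n = 2 each; SE 0.12, limma adjusted p = 3.79e-04). The knockout level was thus 36.0% of wild type, a 2.77-fold lower level (95% interval of the log2 change -1.77 to -1.18). A larger change in either direction was found for 2.54% of all genes.

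The genes beside Fgf4 on chromosome 7 had changes well short of this fall. Fgf3, the neighbour on 1 side and another FGF, had a wild-type mean of 4.36 and a knockout mean of 4.23 (difference -0.12, 95% interval -0.34 to 0.091, limma adjusted p = 0.373). Fgf15, the neighbour on the other side, had means of 5.54 and 5.50 (difference -0.043, interval -0.33 to 0.24, limma adjusted p = 0.833). In wild-type samples Fgf3 and Fgf15 lay below the median of gene means (5.57). RMA, the method behind the deposited values, compresses differences among dim probe sets, so a fall there could be missed. The cell cycle gene Ccnd1, next after Fgf15 and bright in wild-type samples (mean 9.47), had a change of 0.45 (limma adjusted p = 0.0578). Among the 16 tested genes nearest to Fgf4, up to 10 on each side, 2 rose and 0 fell, with a median change of -0.075. The shares over all genes were 14.2% higher and 12.7% lower.

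The receptors moved the other way from the ligand. Fgfr1, a receptor tyrosine kinase and the main receptor for Fgf4 in these cells, gave 9.03 and 9.04 with Trim28 intact, against 9.61 and 9.83 in the knockout. The wild-type samples were nearly equal and both knockout samples were higher. The rise was 0.69 (SE 0.11, interval 0.43 to 0.94, limma adjusted p = 4.16e-03), which is 1.61-fold. Of the 20 tested genes nearest to it on chromosome 8, 7 rose and 0 fell, with a median change of 0.11. Of all genes 14.2% rose and 12.7% fell.

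Fgfr2, the receptor linked to primitive endoderm and trophoblast, read 6.43 and 6.15 in wild-type samples, against 7.22 and 6.97 in knockout samples. All knockout values lay above all wild-type values, by 0.54 at the nearest. It rose by 0.81 (SE 0.13, interval 0.49 to 1.13, limma adjusted p = 5.69e-03), or 1.75-fold. Without wild-type replicate 2 the rise was 0.67 and the adjusted p 0.0588, the one alternative in which a call among the members was lost.

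The feedback inhibitors split. Spry2, a Sprouty protein that blocks signalling between receptor and RAF, stood at 9.30 and 9.39 in the KAP_WT samples and at 8.30 and 8.42 in the KAP_KO samples. The knockout samples were lower by 0.88 at the nearest, and Spry2 fell by 0.99 (SE 0.10, interval -1.22 to -0.76, limma adjusted p = 6.77e-04), to 50.4% of wild type. The 20 tested genes nearest to it on chromosome 14 had a median change of 0.077. Among them 1 was higher and 1 lower, against 14.2% and 12.7% of all genes. Spry4, a related Sprouty gene, gave 9.71 and 9.52 with Trim28 intact, against 8.53 and 8.35 in the knockout. The groups were 1.00 apart at the nearest. It fell by 1.18 (SE 0.11, interval -1.45 to -0.91, limma adjusted p = 6.24e-04), to 44.1% of wild type, and its 20 neighbours had a median change of -0.072.

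Dusp6, the phosphatase that removes phosphate from ERK in the cytoplasm, is shown with its promoter because it rose while the Sprouty members fell. The 250 bases before its start, chr10:99262981-99263230 on the plus strand of GRCm38.p6 from RefSeq, hold CCAAT 1 time, on the reverse strand and in capitals as ATTGG, and no GC box.
Dusp6: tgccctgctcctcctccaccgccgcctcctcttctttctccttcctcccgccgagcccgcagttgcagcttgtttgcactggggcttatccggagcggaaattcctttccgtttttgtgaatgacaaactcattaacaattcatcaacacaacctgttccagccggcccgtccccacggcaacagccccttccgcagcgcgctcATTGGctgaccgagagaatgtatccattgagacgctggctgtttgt
The same stretch of Spry2 held neither motif, and no window was at hand for Spry4. In the Socs3 stretch above there is 1 GC box, which is not marked there. No match says only that these letters are not in the window.

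Dusp6 read 9.58 and 9.51 in wild-type samples, against 10.12 and 10.26 in knockout samples. Both knockout samples were higher, by 0.54 at the nearest. The rise of 0.65 (SE 0.10, interval 0.41 to 0.88, limma adjusted p = 3.71e-03) is 1.57-fold. Its interval lies above 0 and those of Spry2 and Spry4 lie below 0, so the 3 inhibitors did not move together. The 20 genes nearest to Dusp6 on chromosome 10 had a median change of 0.084. Of these 5 were higher and 0 lower, against 14.2% and 12.7% of all genes.

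**Figure D2:**
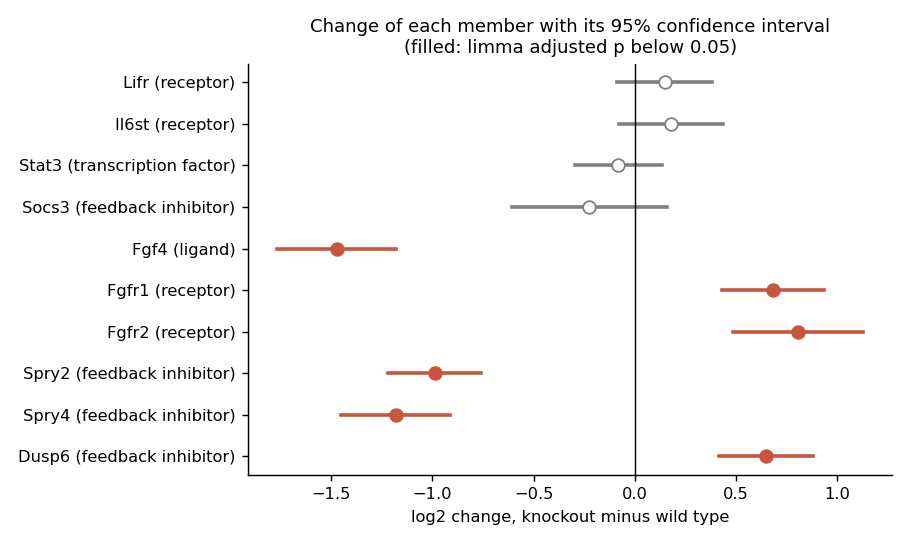
Log2 change of each member (horizontal axis, knockout minus wild type) with its 95% confidence interval from limma, filled where the adjusted p is under 0.05. The intervals of the 4 LIF-STAT3 genes include 0, those of Fgf4, Spry2 and Spry4 lie below 0, and those of Fgfr1, Fgfr2 and Dusp6 lie above 0.

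Markers of stem cells and of other cell types moved as well. Whether primitive endoderm or trophoblast cells were present was not tested. Called were 66.7% of stem cell, 73.7% of fibroblast, 58.3% of primitive endoderm and 54.5% of trophoblast markers, against 26.9% of all genes. All 12 stem cell markers were brighter than the median gene, and 41.8% of such genes passed when fitted alone. Stem cell markers were bright in both groups, with a mean over 12 genes of 10.20 in each wild-type sample and 9.84 and 9.64 in the knockout samples. Of the 12, 8 fell and 0 rose (0 also rose at an unadjusted p under 0.05 in limma), led by Esrrb (-1.11), Sox2 (-0.85) and L1td1 (-0.65). The count of falls was 2 without wild-type replicate 1 or 2 and 5 without knockout replicate 2. Fibroblast markers, which the feeder cells express, averaged 4.92 and 4.54 in wild-type samples, against 6.15 and 6.21 in knockout samples. Of 19 measured, 14 rose and 0 fell (0 at an unadjusted p under 0.05 as well), led by Acta2 (4.65), Tagln (4.61) and Thbs1 (4.22). Acta2 read 6.78 in wild-type replicate 1 and 4.64 in replicate 2, and Thbs1 read 7.50 and 5.17 there. Without wild-type replicate 1 these rises were 5.73 and 5.38, and without wild-type replicate 2 they were 3.58 and 3.06. Among the fibroblast markers Fap and Lum, named after their values were seen, stayed dim. Their wild-type means were 2.77 and 3.06 and their knockout means 2.69 and 3.23, below the lower quartile of gene means (3.80). Primitive endoderm markers rose in 7 of 12 and fell in 0 (1 at an unadjusted p under 0.05), led by Lrp2 (1.99), Gata4 (1.47) and Dab2 (1.39), and 4 rose without wild-type replicate 2. Trophoblast markers rose in 4 of 11 and fell in 2, with a median of 0.23. The largest called changes were those of Krt8 (3.56), Krt18 (3.36) and Cdx2 (1.03), and the 2 that fell, named after their values were seen, were Tfap2c (-0.81) and Plet1 (-0.46). The mean change of this list was 0.70, and 0.088 over the 9 genes other than the keratins Krt8 and Krt18. Fibroblasts also express Fgfr1, and primitive endoderm and trophoblast cells Fgfr2. The part of other cell types in the rises of Fgfr1, Fgfr2 and Dusp6, and of fewer or changed stem cells in the falls of Fgf4, Spry2 and Spry4, was not tested. In such bulk samples fewer cells of a type and less RNA per cell cannot be told apart.

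**Figure D3:**
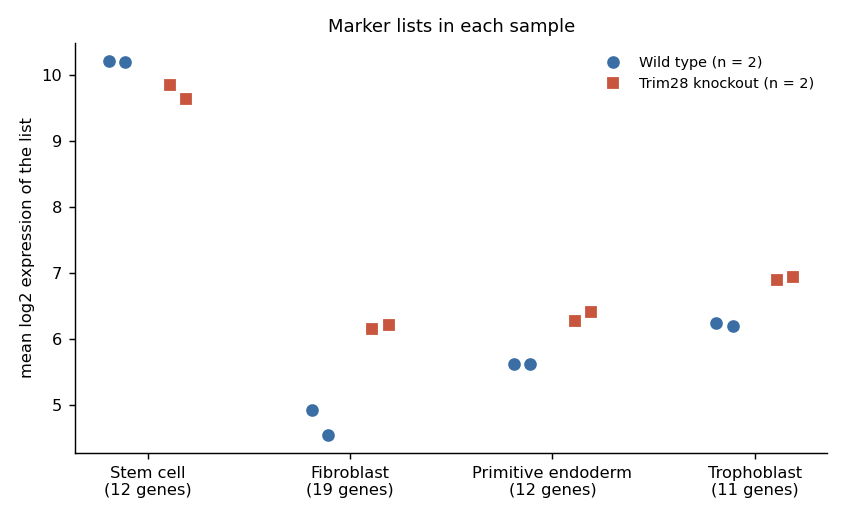
Mean log2 expression of 4 marker lists (vertical axis) in each wild-type sample (circles) and each knockout sample (squares). Stem cell markers lie near 10.20 in wild-type samples and at 9.84 and 9.64 in knockout samples, and the other 3 lists are higher in both knockout samples than in both wild-type samples, the trophoblast list mainly through Krt8 and Krt18.

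Beyond the members, 114 of 127 listed genes of both pathways were measured, and 37 rose and 20 fell, 50.0% called against 26.9% of all genes. Of the 114, 79 were brighter than the median gene. With such genes fitted alone 45 of the 79 passed, against 41.8% of all such genes. With array medians subtracted, which moves every change by -0.17, 29 rose (25.4%) and 35 fell (30.7%), against 11.0% higher and 34.0% lower among all genes under that scaling. The other listed genes were not analysed here. The median change over the 114 was 0.082, against -0.053 over all genes.

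Upstream of Stat3, LIF-family ligands and receptors showed 3 rises among 9 measured genes and 0 falls (1 fall at an unadjusted p under 0.05 in limma), 33.3% called against the 26.9% of all genes, with a median of 0.19. Lif itself stood at 5.31 and 5.14 in the KAP_WT samples and at 5.95 and 6.41 in the KAP_KO samples, and rose by 0.96 (SE 0.16, limma adjusted p = 5.61e-03). Both knockout samples were higher than both wild-type samples. The interleukin-6 receptor gene Il6ra rose by 0.82 and Osmr, the oncostatin M receptor that also pairs with gp130, by 0.81. Without wild-type replicate 2, 1 of the 3 calls was left. Fibroblasts make Lif and Osmr too, and the fibroblast markers above were higher in the same samples. The part of such cells in these rises was not tested.

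Among JAK kinases, the phosphatase SHP2 and other STATs, 3 of 9 rose and 4 fell (median 0.019), 77.8% called against the 26.9% of all genes. Of the 9, 7 were brighter than the median gene. With such genes fitted alone 6 of them passed, against 41.8% of all such genes. Jak2, a kinase that cytokine receptors use, gave 4.78 and 4.28 with Trim28 intact, against 6.27 and 6.48 in the knockout. Its rise of 1.85 (SE 0.17, limma adjusted p = 5.70e-04) kept its call in each alternative that measured it. Stat4 (-1.25), Stat6 (-0.93) and the JAK-family kinase gene Tyk2 (-0.68) fell. Jak1, named after its values were seen as the kinase most tied to gp130, had a wild-type mean of 8.56 and a knockout mean of 8.71 (limma adjusted p = 0.298). The count of 7 calls dropped to 3 without wild-type replicate 1 and to 4 without wild-type replicate 2.

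Inhibitors of JAK-STAT signalling went both ways, with 3 of 14 higher and 5 lower (median 0.046). That is 57.1% called, against the 26.9% of all genes. Of the 14, 13 were brighter than the median gene. With such genes fitted alone 7 of them passed, against 41.8% of all such genes. Socs2 fell by 0.80, Pias3, which binds Stat3, by 0.79 and Cish by 0.63, while Socs4 rose by 0.63. Leaving out wild-type replicate 1 or 2 cut the 8 calls to 4 each time.

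Genes known as Stat3 targets in stem cells were mostly lower, although the Stat3 transcript was not called. Of 10 measured, 6 fell and 1 rose (median -0.84), 70% called against the 26.9% of all genes. All 10 were brighter than the median gene, and 41.8% of such genes passed when fitted alone. Bcl3, a transcriptional co-regulator, read 8.95 and 9.06 in wild-type samples, against 7.46 and 7.20 in knockout samples, a fall of 1.67 (SE 0.12, limma adjusted p = 1.93e-04). The naive transcription factor genes Klf4, Tfcp2l1 and Klf5 fell by 1.34, 1.32 and 1.19. Tfcp2l1 and Klf5 kept their calls in each alternative tried, and Klf4 lost its call without wild-type replicate 1 or 2, its knockout samples reading 8.53 and 7.69. Without wild-type replicate 1, 4 of the 7 calls in this list were left. The gene that rose was Junb (0.86), and Pim1 (0.12), Myc (0.029) and Sbno2 (0.028) were not called, all named after their values were seen. The list is not specific to Stat3, since other factors also act on these genes, and stem cell markers fell in the same samples. The part of Stat3 in these falls was not tested.

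On the FGF side, 3 of 17 other ligands rose and 2 fell (median -0.011), 29.4% called and so near the 26.9% of all genes. Fgf8 stood at 5.31 and 4.93 in the KAP_WT samples and at 6.40 and 6.51 in the KAP_KO samples, a rise of 1.33 (SE 0.14, limma adjusted p = 8.59e-04). Fgf5, the marker of the primed epiblast, read 4.48 and 4.23 and then 5.81 and 5.36, a rise of 1.22 (SE 0.17, adjusted p = 2.39e-03). Both rose where Fgf4 fell, and both kept their calls in each alternative that measured them. Fgf10 (0.42) and Fgf1 (-0.36) completed the 4 largest called changes. The 5 calls became 2 without wild-type replicate 1 or 2 and 3 without knockout replicate 1. Subtracting array medians gave 2 rises (11.8%) and 7 falls (41.2%), which again is near the shares of all genes under that scaling.

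Other FGF receptors and co-receptors were mostly higher, with 9 of 12 up and 2 down (median 0.58), 91.7% called against the 26.9% of all genes. Flrt2, a membrane protein of the FLRT family, gave 4.56 and 4.28 with Trim28 intact, against 5.75 and 5.95 in the knockout, a rise of 1.44 (SE 0.13, limma adjusted p = 4.85e-04). Fgfrl1, a receptor without a kinase domain, rose by 1.07, the co-receptor gene Klb by 1.02 and Flrt3 by 0.85. The 2 that fell, named after their values were seen, were the remaining kinase receptors Fgfr3 (-0.71) and Fgfr4 (-0.53). Fgfr3 read 5.78 and 5.92 in wild-type samples, against 5.07 and 5.20 in knockout samples, and kept its call in each alternative that measured it, whereas Fgfr4 lost its call with 3 of the samples left out in turn. Of the 4 kinase receptors, then, Fgfr1 and Fgfr2 were higher and Fgfr3 and Fgfr4 lower. The 11 calls became 5 without wild-type replicate 1, 6 without wild-type replicate 2 and 7 without knockout replicate 2. Subtracting array medians gave 6 rises (50%) and 2 falls (16.7%), against 11.0% higher and 34.0% lower among all genes under that scaling.

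In the RAS-ERK cascade between receptor and nucleus, 23.1% were called, against the 26.9% of all genes. All 13 measured genes were brighter than the median gene. With such genes fitted alone 3 of the 13 passed, against 41.8% of all such genes. Of 13 measured, 3 rose and 0 fell (1 fell at an unadjusted p under 0.05 in limma), with a median of 0.0048. The risers were the exchange factor gene Sos2 (0.81), the ERK-activated kinase gene Rps6ka3 (0.79) and Braf (0.36). Without wild-type replicate 2 limma called 0 of them, and 2 of the 13 had an unadjusted p under 0.05 there. With array medians subtracted 2 rose (15.4%) and 5 fell (38.5%), near the 11.0% and 34.0% of all genes under that scaling.

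Other inhibitors of FGF-ERK signalling were higher or not called. Of 17 measured, 9 rose and 0 fell (2 fell at an unadjusted p under 0.05 in limma), with a median of 0.54. That is 52.9% called, against the 26.9% of all genes. Of the 17, 15 were brighter than the median gene. With such genes fitted alone 8 of them passed, against 41.8% of all such genes. With array medians subtracted 8 rose (47.1%) and 4 fell (23.5%), against 11.0% higher and 34.0% lower among all genes under that scaling. Dusp4, a nuclear ERK phosphatase, stood at 6.36 and 6.23 in the KAP_WT samples and at 7.99 and 8.26 in the KAP_KO samples, a rise of 1.83 (SE 0.12, limma adjusted p = 1.49e-04). Il17rd, a membrane antagonist of FGF receptors also called Sef, read 7.58 and 7.38 and then 9.08 and 8.98, a rise of 1.55 (SE 0.11, adjusted p = 1.86e-04). The receptor inhibitor gene Errfi1 rose by 1.22 and Dusp10, which acts on the p38 and JNK kinases, by 1.15. The other Sprouty genes, named after their values were seen, were Spry1 (0.86) and Spry3 (0.64). Both rose where Spry2 and Spry4 fell. Spry1 gave 6.90 and 6.83 with Trim28 intact, against 7.83 and 7.63 in the knockout, and Spry3 lost its call without wild-type replicate 2.

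Among genes that ERK activity induces, 3 of 13 measured rose and 1 fell (median 0.47), 30.8% called against the 26.9% of all genes. The AP-1 gene Fosl2 rose by 1.35 (limma adjusted p = 1.95e-04), the early response gene Ier3 by 1.34 and Phlda1 by 0.97. Etv4, an ETS factor that FGF signalling induces, read 8.63 and 9.09 in wild-type samples, against 7.68 and 7.69 in knockout samples, and fell by 1.18 (SE 0.15, adjusted p = 2.01e-03). Its relatives Etv5 and Etv1, named after their values were seen, had changes of -0.12 and -0.030 (adjusted p = 0.465 and 0.866). The immediate-early genes Fos and Egr1, also named after their values were seen, varied more within groups than between their means. Fos stood at 7.41 and 4.86 in the KAP_WT samples and at 8.89 and 5.51 in the KAP_KO samples, and Egr1 read 7.91 and 6.56 and then 9.03 and 7.43. For both genes replicate 1 was the higher sample in each group, and neither change passed (adjusted p = 0.561 and 0.263). Without knockout replicate 2 the 4 calls in this list became 8.

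**Figure D4:**
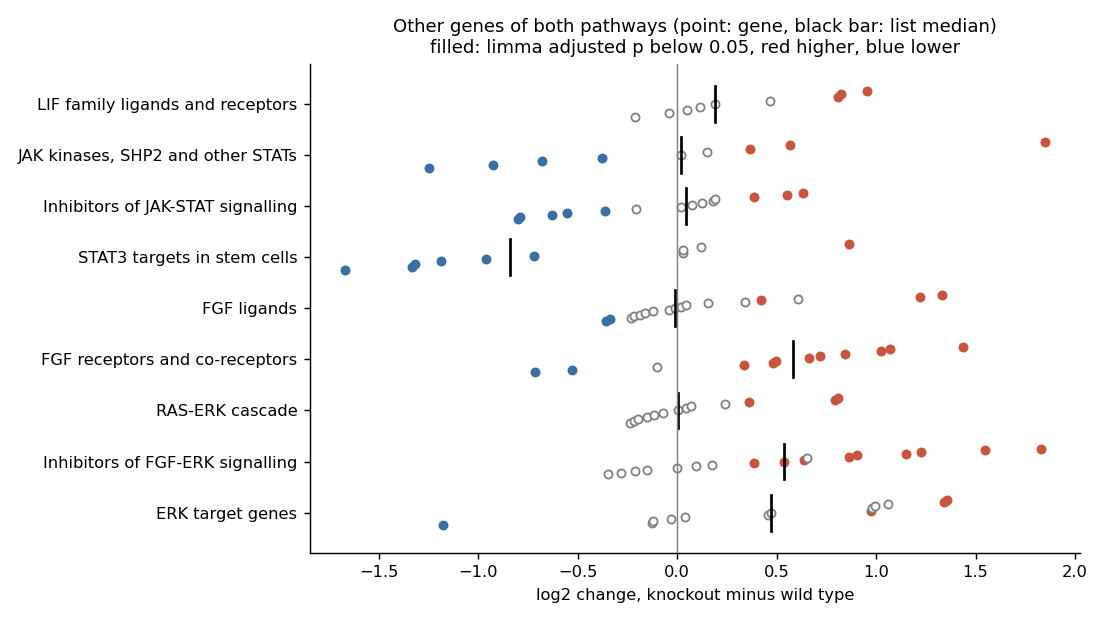
Log2 change (horizontal axis, knockout minus wild type) of each measured gene in 9 pathway lists, with a black bar at the list median and filled points where limma's adjusted p is under 0.05. FGF receptors and co-receptors (9 higher, 2 lower) and FGF-ERK inhibitors (9 higher, 0 lower) lie mostly to the right, and STAT3 targets (1 higher, 6 lower) mostly to the left.

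The changes of the 6 called members kept their sign in each alternative that could move them, namely other normalizations and 1 sample left out. With 1 sample left out at a time Fgf4 ranged from -1.60 to -1.35, Spry4 from -1.27 to -1.09 and Spry2 from -1.05 to -0.93. The risers ranged from 0.58 to 0.79 for Fgfr1, from 0.67 to 0.95 for Fgfr2 and from 0.58 to 0.72 for Dusp6. The adjusted p of Fgfr1 and Dusp6 reached 0.0481 and 0.0455 in the least favourable of these fits.

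**Figure D5:**
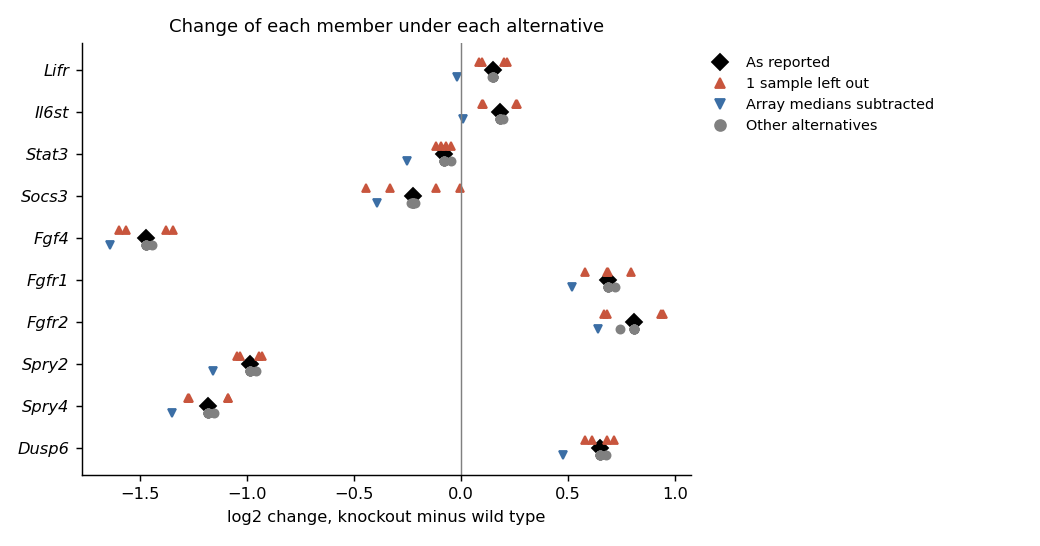
Log2 change of each member (horizontal axis, knockout minus wild type) as reported (diamond), with 1 sample left out (red triangles), with array medians subtracted (blue triangles) and under the other alternatives (grey points). The 6 FGF-ERK genes keep their sign throughout, and Lifr moves from 0.15 to -0.021 with array medians subtracted.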

How the data were processed

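Gene expression was measured on 1 Affymetrix Mouse Gene ST array per sample, 2 wild-type and 2 knockout samples grouped by their titles, from 250 ng of total RNA per the labels' protocols. The deposited log2 values come from RMA in affy (versions not stated), as named in the submitters' processing notes and with 1 column per sample. RMA compresses differences among dim probe sets, and signal over background is unknown here. Of 35556 probe sets, 21218 had 1 gene symbol, which gave 18820 genes (highest-mean probe set), with no filter on dim genes. Symbols were checked against RefSeq (GRCm38.p6), whose promoter table held 8 of the 10 members and no entry for Fgfr1 and Spry4.

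Groups were compared with limma 3.58.1 in R 4.3.3 (lmFit, eBayes; 2 residual and 4.70 prior degrees of freedom), two-sided, with Benjamini-Hochberg adjustment over all genes and a threshold of 0.05. The fit was tested on simulated data. The members and lists were chosen with earlier results of these data known, so their counts are descriptions, read against the share of all genes called. All members are named, with Trim28, up to 4 called genes with the largest change of each pathway list and up to 3 of each marker list. The genes named beside Fgf4 fall outside this rule, and others are said to be named after their values were seen. Alternatives covered a block for the replicate number, other priors, filters, normalizations, probe set rules and thresholds, and each sample left out.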

Additional observations from a re-analysis of the deposited data

How the results depend on the processing

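Of 141 values of the members under alternatives, 139 kept their direction and their side of the threshold. The block, priors, filters and thresholds leave the size of a change as it is. Direction could turn only with other normalizations or a sample left out and, for Socs3 alone, with other probe set rules. No other member had a second probe set, and the looser threshold could not lose a call. Many of the 141 values were thus bound to keep their direction. Lifr turned to -0.021 with array medians subtracted, and Fgfr2 missed the threshold without wild-type replicate 2. The count of members called was 6, with 3 higher and 3 lower, under each alternative except without wild-type replicate 2, where it was 5, with 2 higher. For the other pathway genes the calls ranged from 31 to 52 with 1 sample left out, 18 to 36 of them higher and 12 to 18 lower, and 35 were lower with array medians subtracted. Whether same-numbered samples share more than a number is not known, since 2 pairs cannot show pairing (correlation of same-numbered deviations over genes 0.145). With the replicate number as a block, 6 members and 62 other pathway genes were called, and the calls among ERK target genes went from 4 to 8. Dropping 1 wild-type sample lowered the share of all genes called from 26.9% to 14.1% or 12.9%. Other background corrections need scanner intensities and were not run, and signal over background limits what dim genes such as Osmr, Fgf5 and Spry3 can show.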
